A study of Neurospora crassa with 94 samples.

Results

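The genes described here are the DNA repair and recombination genes of the filamentous fungus Neurospora crassa that carry classical mutant names: mus (mutagen sensitive), uvs (ultraviolet sensitive), mei (meiotic), upr (ultraviolet photoreactivation), and the msh and rad names. They were chosen by name alone: the name in the expression tables is 1 of these prefixes followed by a hyphen and a number. The 26 genes described here are from 10397 genes in the tables, which themselves give all 26 names. No gene carries a hyphenated msh or rad name.

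Cells repair broken DNA by copying an intact sequence through homologous recombination or by rejoining the ends directly. Damaged bases are cut out by excision repair, lesions met by the replication fork are bypassed by post-replication repair, and checkpoint kinases hold the cell cycle while repair goes on. In N. crassa these pathways were ordered largely from mutants sensitive to mutagens, and strains lacking the end-joining genes mus-51 or mus-52 are the usual recipients for gene deletion.

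The study asked how the chromatin remodeller ISWI (gene isw) and its partners ACF, IAF-1 and IAF-2 act on genes silenced by the Polycomb enzyme, whose catalytic subunit is set-7. RNA was taken from mycelial cultures grown in constant light, and 41 libraries in 14 groups fall into 3 library series, each with its own wild type (WT). Series 111 holds libraries labelled acf, iaf-1, iaf-2 and WT, and series 112 holds acf iaf-1 iaf-2 (the triple mutant), acf, set-7 and WT, all in 3 libraries. Series 118 holds isw, the triple mutant, acf iaf-1, acf iaf-2 and WT in 3 libraries each, and iaf-1 iaf-2 in 2. The labels name no other allele, no strain background and no separate cultures, so p-values measure only the spread between libraries, which may be technical. The other 53 samples, of chromatin, were not analysed here.

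The lowest and highest library totals were 5332503 and 9021398 reads in series 111. They were 5652592 and 22582163 in series 112, then 11711993 and 21973649 in series 118. The 26 genes had reads in all 41 libraries. Reads of the deleted genes checked the labels: isw RNA averaged 2.12 TPM in isw libraries and 33.0 TPM in WT, and iaf-1 and iaf-2 were near 0 wherever they are labelled as deleted. Reads of the acf gene were higher, not lower, wherever acf is labelled as deleted, at 188 CPM in acf against 43.1 CPM in WT of series 111. In series 112 they were 74.3 CPM in acf and 63.15 CPM in the triple mutant, against 30.1 CPM in WT. In series 118 they were 25.1 TPM in acf iaf-1, 24.6 TPM in acf iaf-2 and 26.8 TPM in the triple mutant, against 14.9 TPM in WT. They were also 43.0 TPM in isw, where acf is not labelled as deleted. Reads of set-7 remained in libraries labelled set-7, at 4.42 CPM against 7.29 CPM in WT. Libraries with set-7 or acf in the label, acf alone or combined, are therefore called by their labels. Every direction drawn from them rests on the label. In series 111, 4 pairs of libraries (WT 1 and 3, acf 1 and 2, iaf-1 1 and 3, iaf-2 1 and 2) differed by little more than sampling noise, with a chi-square per degree of freedom between 1.53 and 1.93. WT replicate 2 stood apart from the other WT libraries at 68.7 and 71.7. For series 111, the counts of repair genes called against WT are also given with each close pair counted as 1 library. Repair gene calls against WT lost that way are named. All other p-values and SD values of series 111 treat its libraries as separate.

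Levels are given in TPM (transcript abundance scaled for gene length and depth) in series 118. In series 111 and 112 they are given in CPM (counts scaled by TMM to a common library size, not scaled for length). A gene is called when its Benjamini-Hochberg adjusted p over all genes tested is under 0.05. The test is limma on log2(TPM + 1) in series 118 and edgeR's quasi-likelihood test on counts in the others. Fold changes are log2 values with their standard error (SE), mutant over WT, and those on the log2(TPM + 1) scale understate changes of low genes. Comparisons within a series share their WT libraries, so they are set side by side and not counted as separate evidence.

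In WT of series 118, where levels per length can be compared between genes, the 26 genes were mostly of modest expression. Their median was 11.1 TPM, against 17.0 TPM over all genes. The ubiquitin-conjugating enzyme gene mus-8 stood far above the others, at 189 ± 3.95 TPM (SD, n = 3), followed by uvs-5, a homologue of the mitochondrial fusion gene FZO1, at 59.4 ± 7.14 TPM and the F-box gene mus-10 at 51.7 ± 2.66 TPM. The libraries of uvs-5 and mus-10 overlapped, and the Ku70 gene mus-51 came next at 26.9 ± 0.721 TPM. At the low end lay the checkpoint kinase gene mus-59 at 2.57 ± 0.567 TPM and upr-1, the catalytic subunit of the bypass polymerase zeta, at 2.35 ± 0.566 TPM. Neighbours in the order also overlapped in their libraries from mus-52 down to mus-9, between mus-41 and mus-27, between mus-18 and mus-42, and from uvs-3 down to upr-1, so those places in the order are not settled.

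**Figure D1:**
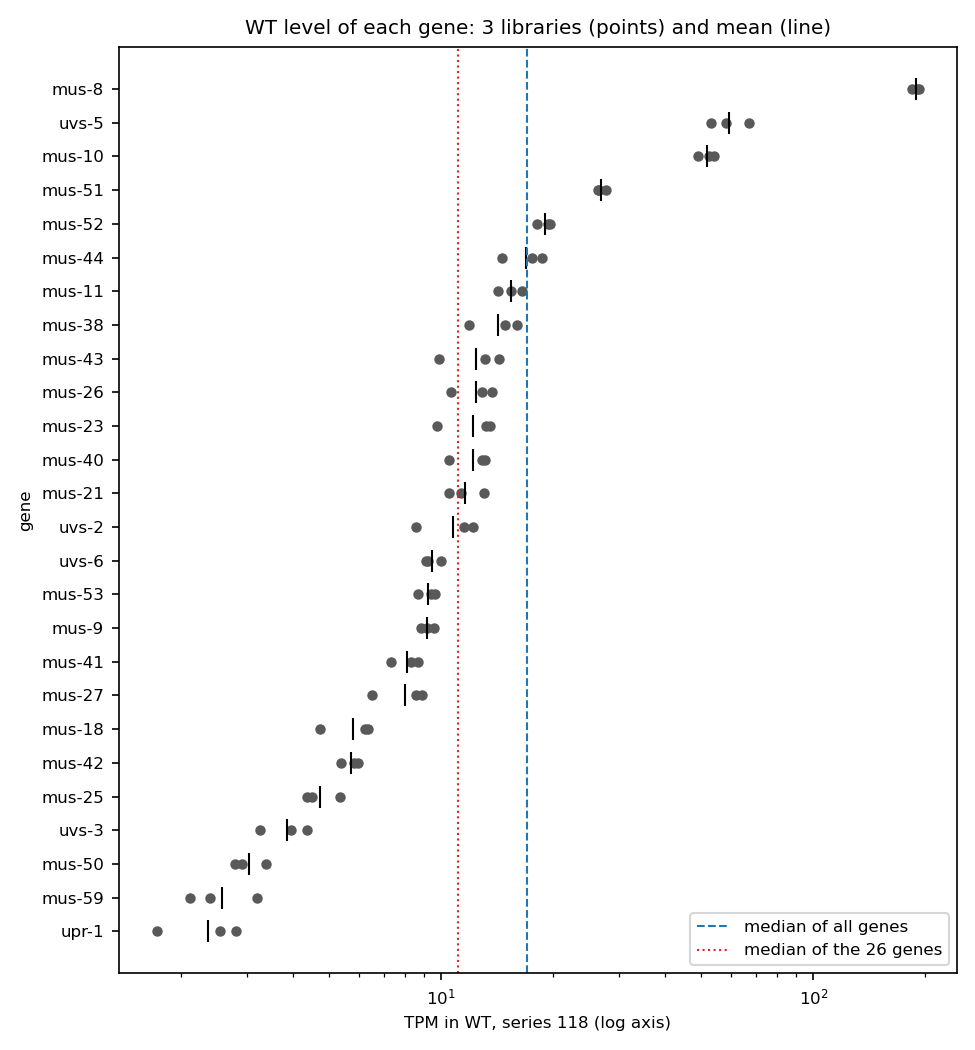
TPM of each of the 26 genes in the 3 WT libraries of series 118 (points) with the mean (line), on a log axis, ordered by mean. mus-8 at 189 TPM lies well to the right of all others, and most genes sit left of the median of all genes at 17.0 TPM.

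Against WT of the same series, 23 of the 26 genes were called in at least 1 of the 11 comparisons, and 64 of the 286 single tests passed. Of these 23 genes, 5 were called only as higher, 4 only as lower and 14 both ways, depending on the mutant and the series. These pooled counts were not made over all genes, whose share called is given comparison by comparison. Of the 26 genes, 69.2% were called in acf of series 111 and 53.8% in isw, against 66% and 48.3% of all genes. Their share was below that of all genes in each other comparison with WT. The comparisons with most calls went in opposite directions: the repair genes were mainly higher in isw and triple-mutant libraries of series 118 and mainly lower in libraries labelled acf of series 111. In isw libraries 13 genes rose and 1 fell, where 48.3% of the 9339 genes tested were called, 29% as higher and 19.3% as lower. With scaling by median ratios the split was 13 higher and 3 lower, and with edgeR on recovered reads 13 higher and 4 lower. The triple mutant of series 118 had 11 higher and 1 lower, where 51.1% of genes were called, 29.8% as higher and 21.3% as lower. The median log2 fold change of the 26 genes was 0.39 in isw and 0.32 in the triple mutant, against 0.08 and 0.05 over all genes tested.

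Libraries labelled acf in series 111 had 5 genes higher and 13 lower, where 66% of genes were called, 31.6% as higher and 34.4% as lower. The median over the 26 genes was -0.60, against -0.09 over all genes. Scaled by library totals only, the median of all genes moved to -0.39, that of the 26 genes to -0.91, and the split to 2 higher and 16 lower, with 15 calls shared. With close pairs counted as 1 library, 3 were higher and 13 lower. In series 112 the same label gave no higher call and 1 lower call, where 27.2% of genes were called, 15.2% as higher and 12% as lower.

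Each other comparison with WT had 5 calls or fewer. Libraries labelled iaf-1 had 1 higher and 4 lower, where 28.8% of genes were called, 15.9% as higher and 13% as lower. Those labelled iaf-2 had 1 higher and none lower, where 19.6% were called, 10.1% as higher and 9.48% as lower. With close pairs counted as 1 library, iaf-1 had 1 call and iaf-2 had 0. The count in iaf-1 was 10 without WT replicate 2 and 3 without any 1 of the other 5 libraries. The count in iaf-2 was 6 without WT replicate 2 and 0 without WT replicate 1 or iaf-2 replicate 3.

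Libraries labelled set-7 had 1 higher and 2 lower, where 14.1% of genes were called, 7.4% as higher and 6.72% as lower. The split was 1 and 0 with median-ratio scaling. None of the 3 held when each library was left out in turn: the count was 0 without set-7 replicate 1 and 1 without set-7 replicate 2 or WT replicate 2. The 3 calls were also all lost without WT replicate 1, at edgeR adjusted p from 0.0587 to 0.216. The triple mutant of series 112 had 1 higher and 4 lower, where 54.9% were called, 28.6% as higher and 26.3% as lower. Its split was 2 and 4 with median-ratio scaling and 1 and 8 with library totals only, and 8 genes were called without WT replicate 3. Libraries labelled acf iaf-2 had 5 higher and none lower, where 24.7% were called, 19.5% as higher and 5.16% as lower. A single one of the 5 held without acf iaf-2 replicate 3 or without WT replicate 3, and 3 genes were called without acf iaf-2 replicate 2. No repair gene was called by limma in acf iaf-1, where 31.6% of all genes were called (17.7% higher, 13.9% lower), and 3 had an unadjusted p under 0.05. In iaf-1 iaf-2 none was called either, where 21.5% were called (14% higher, 7.5% lower), and 2 had an unadjusted p under 0.05. For this pair of mutants edgeR on recovered reads called 0 and 1.

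**Figure D2:**
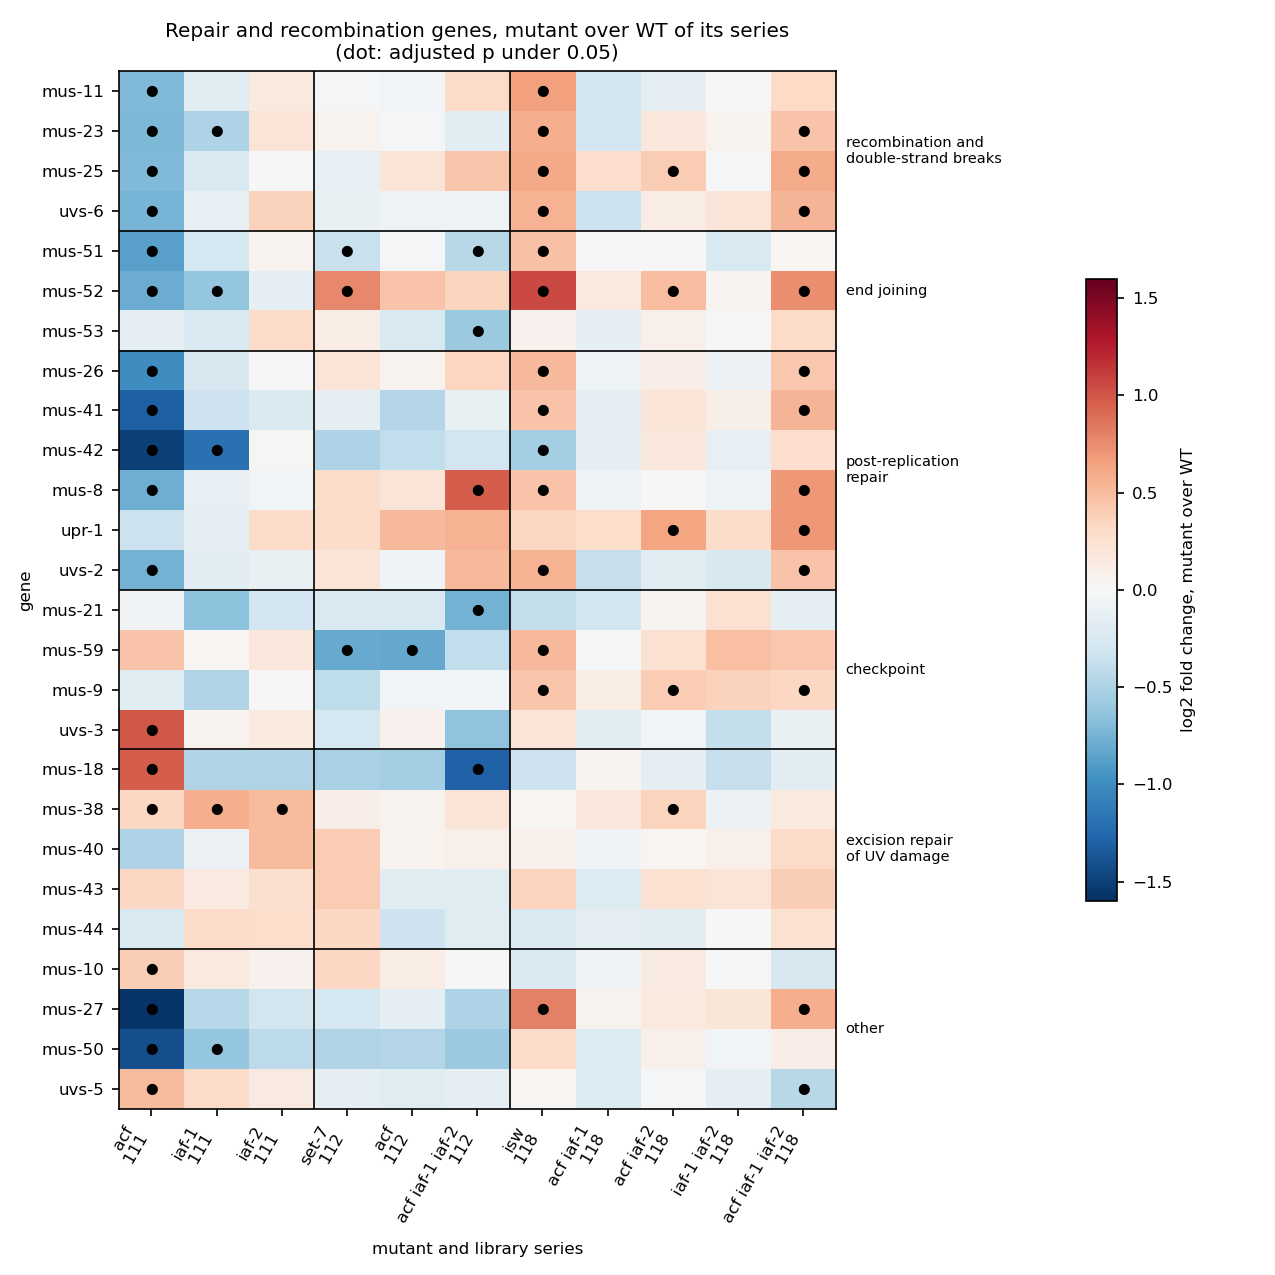
Log2 fold change of the 26 genes (rows, grouped by role) in each of the 11 mutant groups over WT of its own series (columns), with a dot where the adjusted p is under 0.05. The isw and triple-mutant columns of series 118 are mostly on the higher side, with 13 and 11 higher calls, and the acf column of series 111 is mostly on the lower side, with 13 lower calls.

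Summed levels of mating markers lay wholly outside the WT range of the series in every mutant group, below it in iaf-2 and set-7 and above it elsewhere. Those of conidiation markers did so in isw alone, below WT. A sum does not show which of its markers carries it. The summed level of 7 mating and sexual markers was 29180 to 35960 TPM in isw and 9207 to 19210 TPM in the triple mutant of series 118, against 311.8 to 411.2 TPM in WT, with ccg-4 at 0 in WT. In series 112 that sum was 10690 to 12110 CPM in the triple mutant and 554.5 to 726.9 CPM in WT, with ccg-4 again at 0 in WT. The sum of 8 conidiation markers was 1000 to 1433 TPM in isw and 1309 to 2530 TPM in the triple mutant of series 118, against 1743 to 3636 TPM in WT, and con-13 was at 0 in WT. It was 1410 to 1599 CPM in acf libraries of series 111 and 751.5 to 1781 CPM in WT. The mating sum in series 111 was 87.79 to 99.52 CPM in acf, 76.19 to 104 CPM in iaf-1 and 51.92 to 55.76 CPM in iaf-2, against 63.96 to 64.96 CPM in WT, with ccg-4 at 0 in iaf-1, iaf-2 and WT. In series 112 it was 893.7 to 1047 CPM in acf and 377.5 to 554.1 CPM in set-7, against the WT range above. In series 118 it was 908.5 to 960.1 TPM in acf iaf-1, 469.5 to 911.1 TPM in acf iaf-2 and 453.4 to 739.2 TPM in iaf-1 iaf-2, all above the WT range. The part of these markers in the repair gene results was not tested, and in bulk RNA fewer cells of a type and less RNA per cell cannot be told apart.

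Homologous recombination has 4 genes here: all 4 rose in isw libraries, 3 rose in the triple mutant of series 118, and all 4 fell in acf libraries of series 111. Over all genes tested, 29% were called higher in isw, 29.8% higher in the triple mutant and 34.4% lower in acf of series 111. mus-11 is the homologue of RAD52, which helps complementary strands anneal. It had 25.7, 22.5 and 25.5 TPM in isw and 17, 18.2 and 23.3 TPM in the triple mutant. The double mutants had 11.9, 12.2 and 12.6 TPM (acf iaf-1), 14, 13 and 14 TPM (acf iaf-2) and 11.1 and 20.8 TPM (iaf-1 iaf-2), and WT had 15.4, 16.5 and 14.2 TPM. All isw libraries lay above all WT libraries (log2 fold change 0.65 ± 0.17, adjusted p = 0.0041), and this gene was not called in the other 4 mutants of the series. In series 111 it had 8.12, 10.7 and 8.98 CPM in acf, 11.8, 15.3 and 12.6 in iaf-1, 16.5, 17.7 and 16.9 in iaf-2 and 15, 14.9 and 15.8 CPM in WT. Every acf library was below every WT library (log2 fold change -0.71 ± 0.15, adjusted p = 0.00105). Series 112 gave 13.7, 14.7 and 14.3 CPM in the triple mutant, 9.68, 12.2 and 11.7 in acf, 7.52, 12.4 and 12.6 in set-7 and 10.7, 13.2 and 10.2 CPM in WT, and no comparison there was called.

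mus-25, the homologue of the RAD54 motor protein of recombination, had 7.54, 8.43 and 7.31 TPM in isw and 7.78, 6.55 and 8.54 TPM in the triple mutant. Libraries of acf iaf-1 had 6.36, 5.79 and 5.49, of acf iaf-2 6.1, 7.57 and 6.25 and of iaf-1 iaf-2 4.19 and 5.16 TPM, and those of WT had 5.33, 4.5 and 4.36 TPM. Both isw and triple-mutant libraries lay wholly above WT (0.61 ± 0.14, limma adjusted p = 0.00131, and 0.59 ± 0.14, adjusted p = 0.00183). The rise in acf iaf-2 (log2 fold change 0.41 ± 0.14, adjusted p = 0.0351) was lost without acf iaf-2 replicate 2 or 3, or WT replicate 2 or 3, with adjusted p up to 0.145. It had 14.5, 12.8 and 8.33 CPM in acf, 18.2, 16.3 and 14.6 in iaf-1, 19.1, 19.7 and 19.6 in iaf-2 and 19.7, 16.3 and 22.1 CPM in WT of series 111. The acf libraries were again the low ones (log2 fold change -0.71 ± 0.19, adjusted p = 0.00536). In series 112 the values were 9.49, 8.63 and 11.5 CPM in the triple mutant, 8.73, 6.87 and 9.51 in acf, 6.79, 5.98 and 7.09 in set-7 and 6.27, 8.66 and 6.57 CPM in WT, with no call.

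mus-23 and uvs-6 encode the MRE11 and RAD50 parts of the complex that first processes a broken end. mus-23 had 19.2, 17.8 and 18.4 TPM in isw and 14.8, 16.7 and 19.4 TPM in the triple mutant. Its levels were 10.4, 9.01 and 9.47 TPM for acf iaf-1, 13.6, 13.1 and 14.4 for acf iaf-2, 11.8 and 13.2 for iaf-1 iaf-2 and 13.5, 13.2 and 9.75 TPM in WT. It rose in isw (log2 fold change 0.58 ± 0.13, adjusted p = 0.00141) and in the triple mutant (log2 fold change 0.45 ± 0.13, adjusted p = 0.00792), where the call was lost without WT replicate 3, the lowest WT library, at adjusted p = 0.0541. Series 111 gave 14.9, 15.4 and 9.96 CPM in acf, 16.7, 14.5 and 16 in iaf-1, 28.3, 26.2 and 21.7 in iaf-2 and 20.7, 20.9 and 24.6 CPM in WT. The acf libraries (log2 fold change -0.72 ± 0.17, adjusted p = 0.00288) and the iaf-1 libraries (log2 fold change -0.49 ± 0.17, adjusted p = 0.0479) lay below WT, and iaf-2 was not called. Leaving out WT replicate 1 or 3, or any 1 iaf-1 library, ended the iaf-1 call, with adjusted p up to 0.131. Counting close pairs as 1 library also ended it (0.245). In series 112 mus-23 had 14.2, 12.2 and 10.4 CPM in the triple mutant, 11.4, 15.6 and 13.8 in acf, 12.7, 13.7 and 16.6 in set-7 and 14.6, 14.8 and 12.3 CPM in WT, and was not called. uvs-6 was higher in isw (0.56 ± 0.15) and the triple mutant of series 118 (0.54 ± 0.15) and lower in acf of series 111 (-0.74 ± 0.14).

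**Figure D3:**
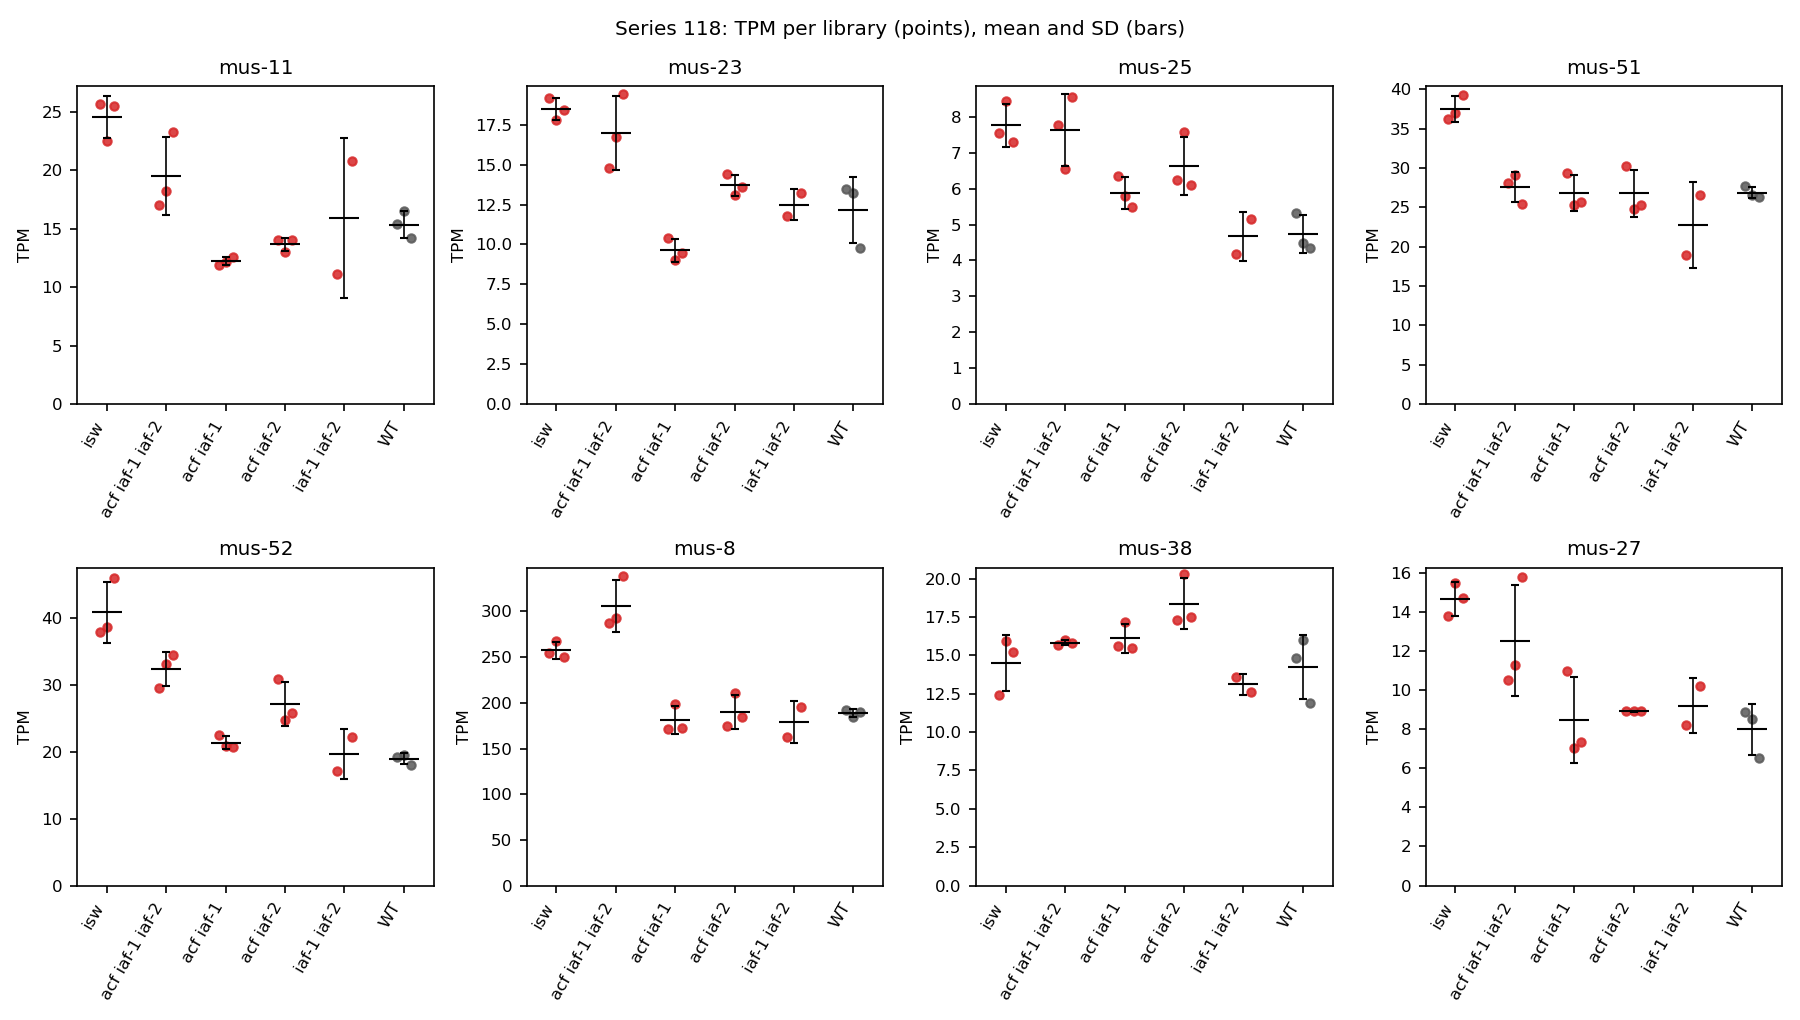
TPM per library (points) with mean and SD (bars) in series 118 for the genes given in full, with mutants left and WT rightmost. mus-52 is highest in isw, at 40.9 ± 4.52 TPM against 19.0 ± 0.801 TPM in WT, and mus-8 is highest in the triple mutant, at 306 ± 28.7 TPM against 189 ± 3.95 TPM in WT (SD, n = 3 each).

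End joining has 3 genes: mus-51 and mus-52 encode the Ku70 and Ku80 subunits of the ring that holds broken ends, and mus-53 encodes DNA ligase IV, which seals them. mus-52 had the largest change of the 26 genes in isw by limma. It had 37.9, 38.7 and 46.1 TPM in isw and 29.6, 33.1 and 34.5 TPM in the triple mutant. Libraries of acf iaf-1 had 22.5, 20.9 and 20.8, of acf iaf-2 25.9, 24.8 and 30.9 and of iaf-1 iaf-2 17.1 and 22.3 TPM, and those of WT had 19.3, 19.6 and 18.1 TPM. The isw, triple-mutant and acf iaf-2 libraries all lay above WT, by 1.06 ± 0.12 (limma adjusted p = 1.29e-06), 0.74 ± 0.12 (adjusted p = 7.7e-05) and 0.49 ± 0.12 (adjusted p = 0.00576), and each of these calls held without each library. Series 112 gave 24.2, 23.9 and 21.9 CPM in the triple mutant, 24.4, 27.4 and 24 in acf, 48.6, 22 and 26.2 in set-7 and 19.8, 17 and 18.6 CPM in WT. The set-7 call (log2 fold change 0.77 ± 0.22, adjusted p = 0.033) rested largely on set-7 replicate 1, which was far above the other 2, and was lost without it (adjusted p = 0.0876) and without any 1 WT library (up to 0.121). In series 111 mus-52 had 33.5, 31.8 and 28.4 CPM in acf, 41.7, 28.5 and 35.2 in iaf-1, 52.7, 51.3 and 40.4 in iaf-2 and 49.3, 52 and 60.1 CPM in WT. Here acf (log2 fold change -0.79 ± 0.16, adjusted p = 0.000907) and iaf-1 (log2 fold change -0.62 ± 0.16, adjusted p = 0.0124) were below WT, and the iaf-1 call was lost without iaf-1 replicate 2 (0.0506) and with close pairs counted as 1 library (0.105).

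mus-51, its partner, had 36.2, 37 and 39.3 TPM in isw and 28.1, 29.1 and 25.4 TPM in the triple mutant. Its levels were 29.4, 25.3 and 25.7 TPM for acf iaf-1, 25.3, 24.8 and 30.2 for acf iaf-2, 18.9 and 26.6 for iaf-1 iaf-2 and 27.7, 26.6 and 26.3 TPM in WT. Only isw was called against WT in that series (log2 fold change 0.47 ± 0.12, adjusted p = 0.00441), and its libraries lay above those of all the other groups. Series 112 gave 24.4, 21.4 and 23.8 CPM in the triple mutant, 29.6, 32.1 and 31.6 in acf, 26.8, 22.5 and 25 in set-7 and 33.4, 29.3 and 32.1 CPM in WT. The triple mutant was below WT (log2 fold change -0.44 ± 0.11, adjusted p = 0.00404) and below acf (log2 fold change -0.42 ± 0.11, adjusted p = 0.00591), while the set-7 call (log2 fold change -0.36 ± 0.11, adjusted p = 0.0496) was lost without any 1 of the 6 libraries, with adjusted p up to 0.165. In series 111 it had 29, 26.2 and 23.2 CPM in acf, 44.5, 34 and 39.7 in iaf-1, 50.4, 50.8 and 47.1 in iaf-2 and 45.3, 51 and 46.6 CPM in WT, and acf was the one group below WT beyond the threshold (log2 fold change -0.87 ± 0.13, adjusted p = 8.98e-05). In the triple mutant of series 118 mus-52 was called higher and mus-51 was not (0.03 ± 0.12), and the difference between the genes was not tested. mus-53 was lower in the triple mutant of series 112 (log2 fold change -0.60 ± 0.19, adjusted p = 0.015), a call lost without triple-mutant replicate 2 (0.0649) or WT replicate 2 (0.0947), and was called in no other comparison with WT.

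Post-replication repair has 6 genes, of which 4 rose and 1 fell in isw, 5 rose in the triple mutant of series 118 and 5 fell in acf libraries of series 111. Of all genes, 29% were called higher and 19.3% lower in isw, 29.8% higher in the triple mutant and 34.4% lower in acf of series 111. mus-8 encodes the RAD6 ubiquitin-conjugating enzyme, and uvs-2 the RAD18 ligase that works with it at stalled forks. mus-8 had 255, 268 and 250 TPM in isw and 287, 293 and 339 TPM in the triple mutant. The double mutants had 171, 199 and 173 TPM (acf iaf-1), 185, 211 and 175 TPM (acf iaf-2) and 163 and 195 TPM (iaf-1 iaf-2), and WT had 192, 184 and 190 TPM. In series 112 it had 235, 223 and 201 CPM in the triple mutant, 131, 129 and 128 in acf, 127, 134 and 151 in set-7 and 96.6, 124 and 116 CPM in WT. The triple mutant lay above every other library of series 112, and above WT in both series. mus-8 rose in the triple mutant by 0.69 ± 0.11 in series 118 (limma adjusted p = 3.82e-05) and by 0.97 ± 0.11 in series 112 (edgeR adjusted p = 3.51e-06), with separate WT libraries, and was the 1 repair gene called in both. It also rose in isw (log2 fold change 0.45 ± 0.11, adjusted p = 0.00215) and was higher in the triple mutant than in acf of series 112 (log2 fold change 0.77 ± 0.11, adjusted p = 5.14e-05). In series 111 it had 85.3, 83.6 and 94.4 CPM in acf, 143, 131 and 140 in iaf-1, 150, 148 and 142 in iaf-2 and 148, 154 and 149 CPM in WT. There the acf libraries were far below the rest (log2 fold change -0.78 ± 0.09, adjusted p = 1.42e-05).

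The other 5 genes of this group differed among themselves. mus-41, the homologue of RAD5, which extends the ubiquitin chain, was higher in isw (0.46 ± 0.13) and the triple mutant of series 118 (0.54 ± 0.13) and lower in acf of series 111 (-1.31 ± 0.16). mus-26, the REV7 accessory subunit of polymerase zeta, was higher in isw (0.52 ± 0.13) and the triple mutant (0.43 ± 0.13), and had 5.29 ± 1.51 CPM in acf and 10.6 ± 2.02 CPM in WT of series 111 (SD, n = 3 each; edgeR adjusted p = 0.00169). For uvs-2 the same comparisons gave 0.56 ± 0.17, 0.45 ± 0.17 and -0.76 ± 0.16. Without WT replicate 3 uvs-2 lost its calls in isw (adjusted p = 0.0784) and in the triple mutant (0.187), where it was also lost without WT replicate 1 or triple-mutant replicate 1 or 3. The triple-mutant call of mus-26 was lost without WT replicate 1 (0.0662). upr-1, the REV3 catalytic subunit that partners mus-26, was higher in the triple mutant (0.70 ± 0.17) and acf iaf-2 (0.63 ± 0.17), with the acf iaf-2 call lost without acf iaf-2 replicate 3 (0.0521) or WT replicate 3 (0.0734). mus-42, the REV1 bypass polymerase, went the other way in isw: it had 3.73, 3.61 and 3.51 TPM in isw, 6.41, 6.6 and 8.47 in the triple mutant and 5.83, 5.99 and 5.37 TPM in WT. It was the 1 repair gene called lower in isw by limma (log2 fold change -0.54 ± 0.15, adjusted p = 0.00543), while mus-10 and mus-21, not called, also had all isw libraries below all WT libraries. mus-42 was higher in the triple mutant than in isw (log2 fold change 0.81 ± 0.15, adjusted p = 0.00194). Its falls in series 111 were among the largest, at -1.50 ± 0.15 in acf (edgeR adjusted p = 2.51e-06) and -1.19 ± 0.14 in iaf-1 (adjusted p = 0.000162), and the iaf-1 fall was the single call of that mutant that held with close pairs counted as 1 library.

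Checkpoint genes number 4. mus-9, the ATR kinase that senses single-stranded DNA, rose in isw (0.44 ± 0.12), acf iaf-2 (0.41 ± 0.12) and the triple mutant of series 118 (0.33 ± 0.12). The acf iaf-2 call was lost without acf iaf-2 replicate 3 (adjusted p = 0.111) or WT replicate 3 (0.0568), and that of the triple mutant without WT replicate 1 or 3 or triple-mutant replicate 2 or 3 (up to 0.0867). uvs-3, the ATRIP partner of ATR, rose in acf libraries of series 111, at 26 ± 4.73 CPM in acf and 13.1 ± 1.93 CPM in WT (SD, n = 3 each; edgeR adjusted p = 0.000451). mus-59, a CHK2 kinase homologue, was called lower in acf and in set-7 of series 112 (-0.82 ± 0.25 and -0.81 ± 0.26) and higher in isw (0.52 ± 0.19), and all 3 depended on single libraries. Each of these calls was lost without WT replicate 1 of its series or without any 1 library of the mutant, and the isw call also without WT replicate 3, with adjusted p up to 0.163 in acf, 0.216 in set-7 and 0.119 in isw. mus-21, the ATM kinase, was lower in the triple mutant of series 112, at 28.5 ± 4.26 CPM against 48 ± 10.1 CPM in WT (log2 fold change -0.76 ± 0.16, adjusted p = 0.00094).

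Excision repair of ultraviolet damage has 5 genes, counting mus-40, whose product the sources used here do not describe. None was called in isw or in the triple mutant of series 118, where 48.3% and 51.1% of all genes were called. The role groups were not tested against each other. mus-38, the homologue of the RAD1 nuclease, was called higher in 4 comparisons, all by a small amount. In series 111 it had 26.7, 26.5 and 29.9 CPM in acf, 31.9, 35.8 and 30.9 in iaf-1, 29.8, 29.2 and 34.4 in iaf-2 and 21.8, 20.5 and 23.9 CPM in WT, all mutant libraries lying above WT. The changes were 0.33 ± 0.12 in acf (edgeR adjusted p = 0.0326), 0.58 ± 0.12 in iaf-1 (adjusted p = 0.00429) and 0.50 ± 0.12 in iaf-2 (adjusted p = 0.0151), and with close pairs counted as 1 library none was called (0.129, 0.0846 and 0.189). Calls were also lost without WT replicate 1 or 2 or acf replicate 3 for acf (up to 0.0929) and without WT replicate 1 or iaf-2 replicate 3 for iaf-2 (up to 0.0704), and scaled by library totals only the acf change was 0.02. Series 118 gave 12.4, 15.9 and 15.2 TPM in isw and 15.7, 16 and 15.8 TPM in the triple mutant. Libraries of acf iaf-1 had 15.6, 17.2 and 15.5, of acf iaf-2 17.5, 20.3 and 17.3 and of iaf-1 iaf-2 13.6 and 12.6 TPM, and those of WT had 14.8, 16 and 11.9 TPM. Only acf iaf-2 was called (log2 fold change 0.36 ± 0.12, adjusted p = 0.0445), and not without any 1 acf iaf-2 library or WT replicate 1 or 3 (up to 0.222). In series 112 it had 23.4, 19.5 and 19.8 CPM in the triple mutant, 18.1, 21.4 and 17.4 in acf, 20.6, 19.7 and 18.4 in set-7 and 20, 17.1 and 17.5 CPM in WT, with no call.

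mus-18, an endonuclease that nicks DNA beside ultraviolet photoproducts, was called higher in acf of series 111 and lower in the triple mutant of series 112. It had 8.7, 10.5 and 11.9 CPM in acf and 6.06, 3.76 and 6.01 CPM in WT of series 111, all acf libraries being higher (log2 fold change 0.97 ± 0.22, adjusted p = 0.00161). In series 112 it had 4.36, 4.09 and 3.61 CPM in the triple mutant, 6.22, 7.41 and 6.64 in acf and 6.88, 12.4 and 10.2 CPM in WT. The triple mutant was below acf (log2 fold change -0.73 ± 0.23, adjusted p = 0.0173, lost without triple-mutant replicate 3 at 0.0521 or acf replicate 2 at 0.0567) and below WT (log2 fold change -1.29 ± 0.24, adjusted p = 0.000267), while acf overlapped WT (log2 fold change -0.56 ± 0.22, adjusted p = 0.0726). mus-40, mus-43 (the RAD14 homologue) and mus-44 (the RAD10 homologue and partner of mus-38) were the 3 genes called in no comparison with WT. In series 118 they ran from 10.2 to 18.9, from 9.85 to 20.8 and from 12.9 to 22.7 TPM over all 17 libraries.

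Among the remaining 4 genes, mus-27, whose product the sources used here do not describe, had the second largest rise in isw and the largest fall in acf of series 111. It had 13.8, 15.5 and 14.7 TPM in isw and 10.5, 11.3 and 15.8 TPM in the triple mutant. Its levels were 11, 7.06 and 7.37 TPM for acf iaf-1, 8.95, 8.91 and 8.92 for acf iaf-2, 8.22 and 10.2 for iaf-1 iaf-2 and 8.9, 8.54 and 6.52 TPM in WT. The isw libraries lay wholly above WT (log2 fold change 0.81 ± 0.17, adjusted p = 0.000792), as did the triple mutant (log2 fold change 0.58 ± 0.17, adjusted p = 0.0092), whose call was lost without WT replicate 3 (0.0531) or triple-mutant replicate 3 (0.0568). Series 111 gave 15.3, 18.7 and 9.63 CPM in acf, 32.7, 30.1 and 31.4 in iaf-1, 36.1, 35.4 and 35 in iaf-2 and 48.7, 37.7 and 43.4 CPM in WT. The acf libraries were lowest by a wide margin (log2 fold change -1.57 ± 0.19, adjusted p = 1.5e-05). In series 112 it had 7.12, 9.34 and 8.27 CPM in the triple mutant, 10.6, 10.3 and 10.3 in acf, 6.61, 10.4 and 10.7 in set-7 and 10.2, 15.6 and 8.46 CPM in WT, with no call. mus-50, also of undescribed product, fell in acf of series 111 (-1.41 ± 0.21) and was called lower in iaf-1 (-0.62 ± 0.20), a call lost without WT replicate 1 or 3 or iaf-1 replicate 1 or 3 (up to 0.113). uvs-5 was higher in acf of series 111 (0.50 ± 0.13) and lower in the triple mutant of series 118 (-0.44 ± 0.13, lost without WT replicate 1 at 0.0545). mus-10 was higher in acf of series 111 (0.39 ± 0.11), and not called there with close pairs counted as 1 library (0.076). With library totals only, uvs-5 and mus-10 were no longer called in acf of series 111.

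**Figure D4:**
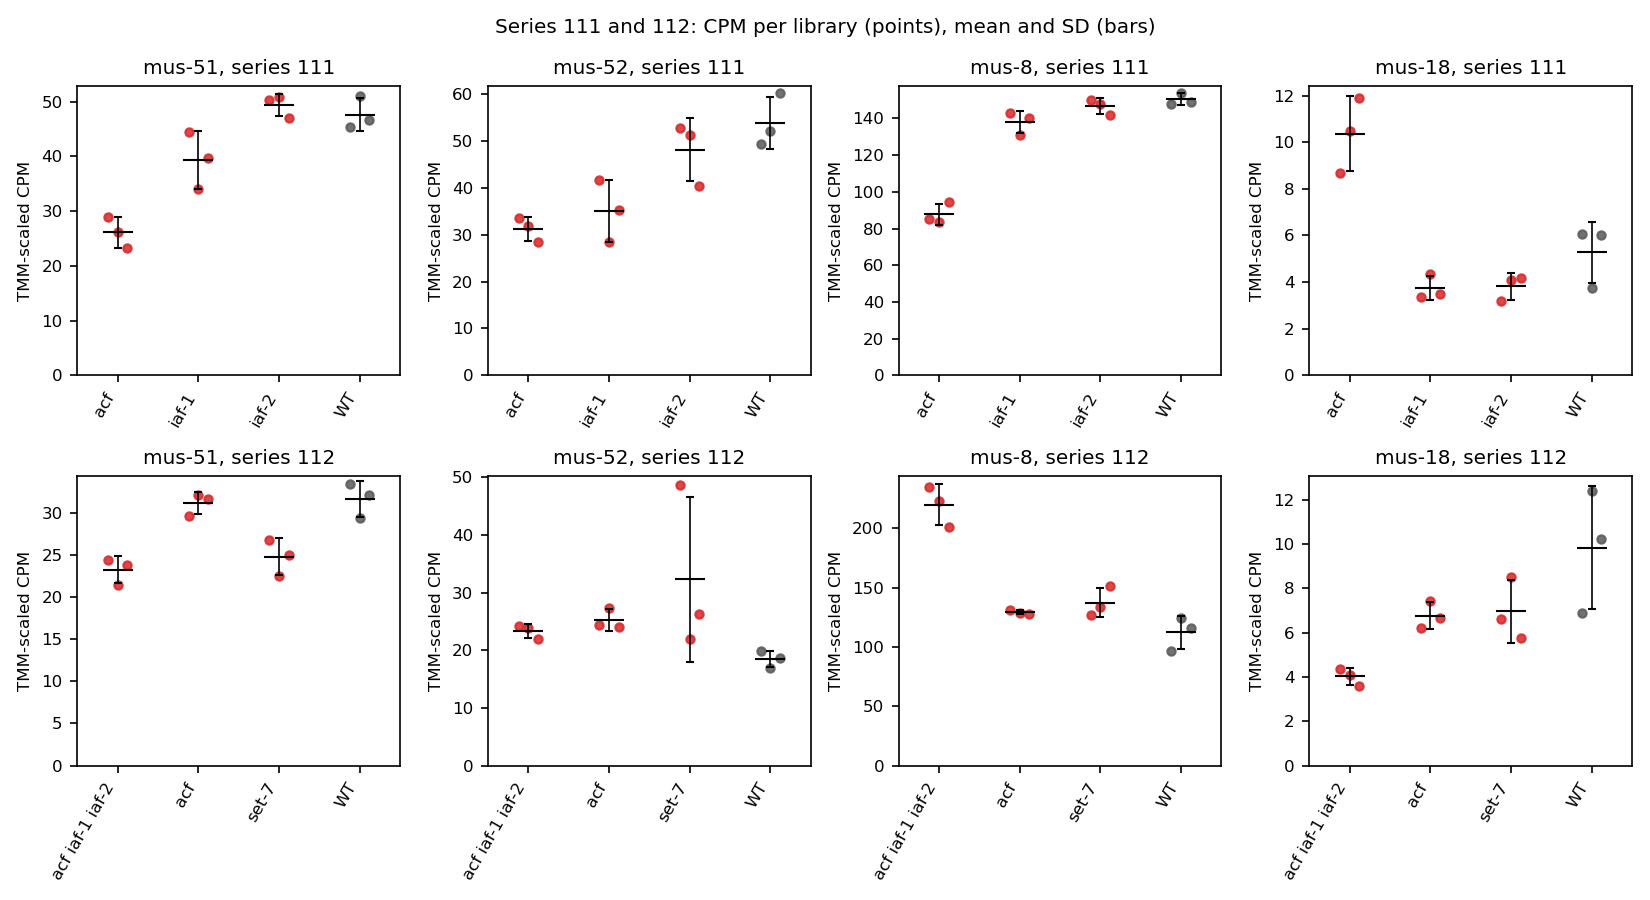
TMM-scaled CPM per library (points) with mean and SD (bars), series 111 above and series 112 below, mutants left and WT rightmost. mus-8 is lowest in acf of series 111, at 87.8 ± 5.78 CPM against 150 ± 3.18 CPM in WT, and highest in the triple mutant of series 112, at 220.0 ± 17.2 CPM against 112 ± 14.3 CPM in WT (SD, n = 3 each).

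The genes given by library are those called in isw, or in the triple mutant of both series, with at least a 1.5-fold change, or called in at least 4 of the 11 comparisons with WT. mus-23 at 1.49-fold in isw is included through its 4 calls, and uvs-6 and uvs-2, each at 1.48-fold in isw with 3 calls, lie just outside.

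Direct comparisons placed the triple mutant against isw and against acf. Against isw, 2 repair genes were higher and 2 lower in the triple mutant, where 17.5% of genes were called, 8.52% as higher and 8.97% as lower. Higher were mus-42 and mus-44 (0.49 ± 0.12), and lower were uvs-5 (-0.48 ± 0.13) and mus-51 (-0.43 ± 0.12). mus-42 held without each library, and leaving out any 1 isw library left 2 calls. The call of mus-44 was lost without isw replicate 3, that of uvs-5 without triple-mutant replicate 1 or 2 or isw replicate 1 or 2, and that of mus-51 without triple-mutant replicate 3 or any 1 isw library, with adjusted p up to 0.0801. Against acf of series 112, 2 were higher and 4 lower in the triple mutant, where 48.2% of genes were called, 25% as higher and 23.2% as lower, and library totals only gave 1 and 4. mus-8 and mus-51 held without each library. uvs-2 was higher (0.60 ± 0.22) and mus-21 (-0.53 ± 0.16) and uvs-3 (-0.72 ± 0.26) lower, and the mus-21 and uvs-3 calls were lost without triple-mutant replicate 1 (0.0642 and 0.0602). That of uvs-2 was lost without triple-mutant replicate 2 or 3 or any 1 acf library (up to 0.153). The uvs-3 call was also lost without triple-mutant replicate 2 (0.112) or acf replicate 1 (0.142).

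The acf label occurs in series 111 and series 112 with different results, and the difference itself was tested as a genotype by series interaction. The acf libraries of series 111 carry the mark pass0 in their labels, which those of series 112 lack, and that mark and the series cannot be told apart. In this test, 4 repair genes had a higher and 6 a lower acf-over-WT change in series 111 than in series 112, where 47.5% of genes were called, 25.7% as higher and 21.8% as lower. The difference was -1.15 ± 0.19 for mus-52 (edgeR adjusted p = 0.000275), -0.89 ± 0.16 for mus-8 (0.000607) and 1.62 ± 0.35 for mus-18 (0.00221). WT levels also differed between the series: mus-52 had 53.8 CPM in WT of series 111 and 18.5 CPM in WT of series 112. In the same order mus-8 had 150 and 112 CPM, and mus-18 had 5.28 and 9.85 CPM. CPM was scaled within each series. The test does not tell a shift in WT libraries from a shift in acf libraries. Over the 26 genes the median difference was -0.58, against -0.02 over all genes. With median-ratio scaling 4 were higher and 9 lower, and with library totals only 1 and 14.

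**Figure D5:**
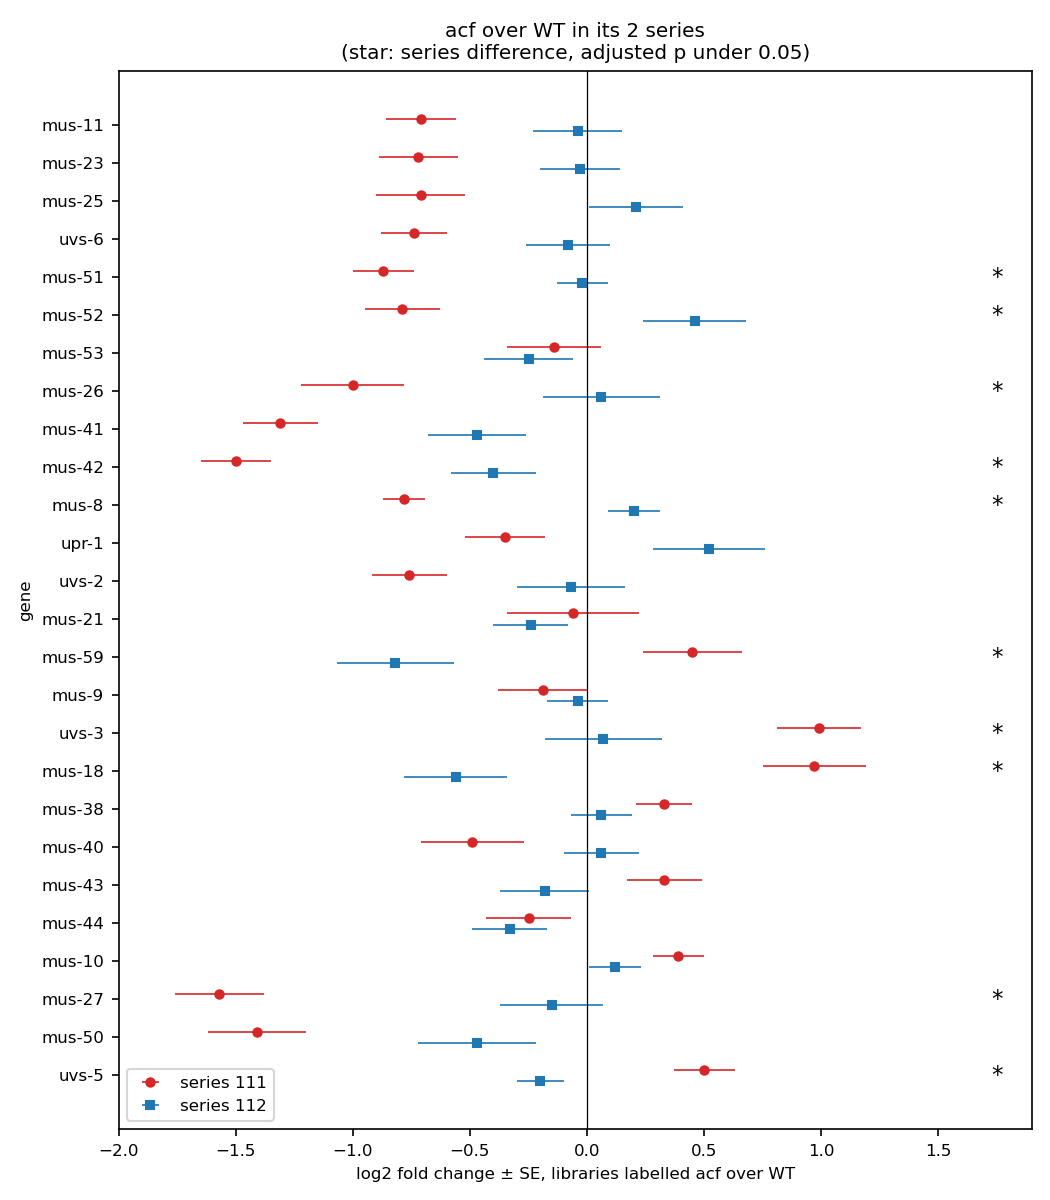
Log2 fold change ± SE of libraries labelled acf over WT for the 26 genes, in series 111 (circles) and series 112 (squares), with a star where the difference between series has an adjusted p under 0.05. Most recombination, end-joining and post-replication genes lie left of 0 in series 111 and near 0 in series 112, and mus-18 lies at 0.97 in series 111 and -0.56 in series 112.

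Other genes of replication and repair were counted in the same comparisons. Of 13 further replication and repair genes listed by name, 8 were higher and 1 lower in isw, and 8 and 2 in the triple mutant of series 118. In the triple mutant of series 112 the split was 1 and 6, and in acf of series 111, of 12 tested, 1 and 8. In acf of series 112 it was 0 and 2, with a median log2 fold change of -0.17. There 15.2% of all genes were called higher and 12% lower. Over all genes the shares called higher and lower were 29% and 19.3% in isw, 29.8% and 21.3% in the triple mutant of series 118, 28.6% and 26.3% in that of series 112, and 31.6% and 34.4% in acf of series 111. Their median log2 fold change was 0.46 in isw and -1.10 in acf of series 111, against 0.08 and -0.09 over all genes tested. In isw the largest were poli, a bypass polymerase (1.19 ± 0.16), and un-24, the large subunit of ribonucleotide reductase, which makes DNA precursors (0.80 ± 0.13). In acf libraries of series 111 un-24 (-2.34 ± 0.18) and rpa-1, a subunit of the single-strand binding protein (-1.81 ± 0.19), were lower, while prd-4, a checkpoint kinase of the clock, was higher (2.61 ± 0.31). A second list holds 8 repair genes whose names lack the hyphen or stand as a synonym, chosen by name after the tables were seen. Read against the same shares, it had 4 higher and 1 lower in isw and none higher and 7 lower in acf of series 111, with rad23 at 0.90 ± 0.13 in isw and rad16 at -2.55 ± 0.26 in acf of series 111, both named for excision repair genes of budding yeast. In acf of series 112 this list had 1 higher and 1 lower. rad16 was higher in the triple mutant of series 112 (1.17 ± 0.17), and msh4, a meiotic crossover gene, was lower there (-2.90 ± 0.25).

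The photolyase gene phr, whose enzyme reverses ultraviolet damage using light, was lower against WT in each of the 7 comparisons of a strain labelled acf (alone or combined) or isw, and was not called in iaf-1, iaf-2, iaf-1 iaf-2 or set-7. Within each series these comparisons share WT. Over all genes, the share called lower in these 7 comparisons ran from 5.16% in acf iaf-2 to 34.4% in acf of series 111. In series 111 it averaged 2.09 ± 0.711 CPM in acf and 8.41 ± 0.806 CPM in WT (SD, n = 3 each). The acf libraries there held only 11, 9 and 17 phr reads, and acf 1 and 2 are a close pair. In series 112 it averaged 15 ± 2.03 CPM in the triple mutant, 11.5 ± 0.62 CPM in acf and 37.1 ± 8.1 CPM in WT (SD, n = 3 each). In series 118 it averaged 18 ± 1.01 TPM in isw, 19.3 ± 4.33 in the triple mutant, 14.8 ± 3.57 in acf iaf-1, 13.1 ± 1.6 in acf iaf-2 and 29.1 ± 4.44 TPM in WT. The falls were -2.02 ± 0.26 in acf of series 111, -1.69 ± 0.21 in acf and -1.30 ± 0.21 in the triple mutant of series 112, and -0.66 ± 0.19 in isw, -0.94 ± 0.19 in acf iaf-1, -1.09 ± 0.19 in acf iaf-2 and -0.58 ± 0.19 in the triple mutant of series 118. Those of isw (adjusted p = 0.0517) and the triple mutant of series 118 (0.0886) were lost without WT replicate 2, and that of the triple mutant also without its replicate 1 (0.0527) or 3 (0.0866). phr was singled out after its values were seen.

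In the RefSeq annotation of assembly NC12, 7 of the 26 genes lie on chromosome I, 5 each on III and IV, 3 on II and 2 each on V, VI and VII. Genes near chromosome ends matter to the study, since Polycomb silencing in this fungus covers many of them. mus-41 lies 11 genes from an end of chromosome III, uvs-3 12 genes from an end of IV, mus-18 36 from an end of V, uvs-2 59 from an end of IV and mus-44 80 from an end of VI, and all others are farther in. In libraries labelled set-7, which lack the Polycomb enzyme according to the label, none of these 5 was called, where 14.1% of all genes were called, so a count of 0 in 5 says little about them.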

How the data were processed

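Per the labels' protocols, the kit for the RNA libraries keeps strand. Reads were trimmed with Trim Galore 0.4.4 and cutadapt 1.14, checked with FastQC, aligned with HISAT2 2.1.0, handled with SAMtools 1.9 and counted with featureCounts of Subread 1.6.2, per the submitters' processing notes. No source used here gives the genome build or whether counting used strand, so genes that overlap a neighbour are uncertain. Series 111 and 112 were deposited as raw counts of reads, and series 118 was deposited as TPM computed by the authors. Low TPM values fell on whole steps, and reads were recovered for all 10397 genes (100%, within 0.001 of a whole number).

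Counts were tested with edgeR 4.0.16 (quasi-likelihood, TMM scaling, edgeR's expression filter), and TPM with limma 3.58.1 on log2(TPM + 1) in genes with at least 1 TPM in 2 libraries, in R 4.3.3. Each fit held all groups of its series, apart from the acf interaction, which held acf and WT of series 111 and 112. All 26 genes described passed both filters; 1 further gene that the name rule finds is not reported here. CPM values are counts over the TMM-scaled library size, except those of the deleted genes and marker sums, which are per library total. Tables were written with Python 3.11.15, pandas 2.3.3 and numpy 2.4.6. The fits were also run on simulated counts of independent libraries, which say nothing about p-values where libraries form close pairs, as in series 111. Alternatives were median-ratio scaling, library totals only (added after seeing the data), DESeq2 1.42.0, edgeR on recovered reads, a pseudocount of 0.1, no filter, a replicate block, fits of the 2 groups alone, close pairs summed, and each library left out.

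Names came from the tables, and 10363 IDs matched RefSeq NC12 (34 did not). The members and lists were chosen with earlier results of these data known. Genes given by library were called in isw, or in the triple mutant of both series, with at least 1.5-fold change, or in at least 4 of 11 comparisons with WT.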

Additional observations from a re-analysis of the deposited data

Results flagged for a closer look

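Against WT, the change in libraries labelled acf differed between series 111 and series 112 for 10 of the 26 genes (edgeR interaction, adjusted p under 0.05 over all genes). Of all genes tested, 47.5% were called in the same test, a larger share than among the 26 genes (38.5%). Each of the 10 is listed because the acf-over-WT change differs between the 2 series, whether through acf or WT levels. The difference is series 111 minus series 112 on the log2 scale. It was higher for mus-18 (1.62), mus-59 (1.34), uvs-3 (1.01) and uvs-5 (0.80). It was lower for mus-27 (-1.33), mus-52 (-1.15), mus-42 (-1.01), mus-26 (-0.97), mus-8 (-0.89) and mus-51 (-0.75). With library totals only, mus-59, uvs-5 and uvs-3 were no longer called, at adjusted p = 0.0571, 0.0845 and 0.104. The call for uvs-3 was also lost without WT replicate 3 or acf replicate 3 of series 111 or WT replicate 2 of series 112 (up to 0.0722), and that for mus-26 without WT replicate 2 or acf replicate 1 or 3 of series 111, or WT replicate 1 or acf replicate 1 or 2 of series 112 (up to 0.0835). The other 8 held without each library.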

How the results depend on the processing

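The counts of repair genes called changed as follows, and no called gene turned its direction under any alternative run; the cause of these changes was not tested. With close pairs of series 111 summed, iaf-1 had 1 call and iaf-2 0, with fewer libraries in the fit. Fits of the 2 groups alone gave 0 calls in iaf-2 and set-7, 2 in acf of series 112 and 2 in acf iaf-2. For set-7, median-ratio scaling gave 1 call, no filter 1 and DESeq2 5, and for iaf-2 DESeq2 gave 2. With library totals only, the triple mutant of series 112 had 9 calls. For iaf-1 iaf-2, median-ratio scaling and edgeR on recovered reads each gave 1.

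The replicate block, which pairs libraries by their label numbers, left 1 call in set-7 and 3 in iaf-1 and moved no other count by more than 1.5 times. Numbers did not pair the libraries: deviations of same-numbered libraries correlated at a median of 0.000363 in series 111, -0.0730 in series 112 and -0.0448 in series 118.

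With 1 library left out, the calls ran between 17 and 19 in acf and 3 and 10 in iaf-1 and 0 and 6 in iaf-2 of series 111, between 0 and 3 in set-7, 0 and 2 in acf and 4 and 8 in the triple mutant of series 112, and between 13 and 14 in isw, 0 and 2 for acf iaf-1, 1 and 4 for acf iaf-2, 0 and 3 for iaf-1 iaf-2 and 8 and 13 for the triple mutant of series 118. Direct comparisons gave 4 to 5 calls for the triple mutant over acf, 2 to 3 over isw, and 9 to 14 for the acf interaction. Moves with single libraries included 10 in iaf-1 and 6 in iaf-2 without WT replicate 2 of series 111, 8 in the triple mutant of series 112 without WT replicate 3, 2 in acf of series 112 without WT replicate 1 or 2 and 0 without any 1 acf library, 2 in acf iaf-1 without WT replicate 3, and 3 in iaf-1 iaf-2 without its replicate 1. Of the main calls, 12 of 14 in isw, 15 of 18 in acf of series 111, 6 of 12 and 4 of 5 in the triple mutants of series 118 and 112 and 1 of 5 in iaf-1 held under every alternative. The fewest reads in a library were 14 for mus-50 and 15 for uvs-3, which limits the changes detectable in them.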
